A study of Homo sapiens with 6 samples.

Results

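The 76 genes described here encode proteins of the cytosolic ribosome, 46 of the large subunit and 30 of the small subunit. They were chosen by symbol from the 19437 genes of the table (RPL or RPS, then a number with an optional A or X, or P0, P1 or P2), which leaves pseudogenes out. The rule itself uses no measured value. The RNA came from SCC9, an established human cell line of an oral squamous cell carcinoma, grown in DMEM/F12 with 10% serum and 400 ng/ml hydrocortisone. A day after plating, the cells received an adenovirus expressing green fluorescent protein (GFP, the control) or one expressing TEADi, an inhibitor of the TEAD transcription factors, and each group has 3 libraries, lettered A, B and C. Both viruses were given at a multiplicity of infection of 25, and all cells were harvested after 48 h. The groups thus share the line, the vector type and the medium, and no untransduced cells are among the samples. The labels speak of transduction in triplicate and of nothing more, so the spread behind each p-value is that between libraries and may be technical.

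The ribosome joins amino acids into proteins: its small subunit reads the messenger RNA and its large subunit forms the peptide bonds. Ribosomal proteins are needed in matched amounts, and in mammals their messenger RNAs begin with a run of pyrimidines, the terminal oligopyrimidine (TOP) tract, through which the kinase mTOR and the protein LARP1 control how strongly they are translated. TEAD proteins bind DNA and act on transcription together with the co-activators YAP and TAZ, which promote growth of epithelial and carcinoma cells.

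The pyrimidine runs can be read directly from the reference sequence. The windows below span 15 bases before and 15 bases after the annotated start in RefSeq (GRCh38.p14, strand of the gene), with the uninterrupted run of pyrimidines over the first transcribed base in capitals. They are shown to make the pyrimidines around the start visible. The capitals include bases before the annotated start, which are not transcribed, so the run is not the TOP tract alone. Among genes with a single start in that table and a run of at least 6 pyrimidines, and leaving out those on 1 chromosome whose sequence is not shown here, the 4 with the largest and the 4 with the smallest falls were taken, so that the presence of a run follows from the choice.
RPL14, chr3:40457324-40457353, plus strand: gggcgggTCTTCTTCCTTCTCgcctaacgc
RPS3, chr11:75399503-75399532, plus strand: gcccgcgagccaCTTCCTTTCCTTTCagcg
RPLP0, chr12:120201097-120201126, minus strand: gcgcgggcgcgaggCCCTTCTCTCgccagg
RPL27A, chr11:8682777-8682806, plus strand: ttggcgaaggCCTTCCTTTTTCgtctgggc
RPL39, chrX:119791616-119791645, minus strand: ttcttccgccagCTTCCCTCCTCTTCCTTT
RPS21, chr20:62387088-62387117, plus strand: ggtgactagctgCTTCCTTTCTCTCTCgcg
RPL37A, chr2:216498829-216498858, plus strand: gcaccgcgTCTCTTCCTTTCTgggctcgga
RPL28, chr19:55385917-55385946, plus strand: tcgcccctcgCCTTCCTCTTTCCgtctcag
The run is 14 bases long in RPL14 and RPS3, 10 in RPLP0, 12 in RPL27A, 15 in RPS21 and 13 in RPL37A and RPL28. In RPL39 it counts 22 bases when followed past the printed window.

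Values are read counts scaled to library size (CPM), scaled by the authors with TMM factors, which align libraries on genes of moderate change. Their totals ran from 827124 to 915558 per library, and the depth in reads was not recovered. KRT8 and KRT18, keratins of simple epithelia, were present in all 6 libraries, while the endothelial gene CDH5 was at most 0.238 CPM. The other epithelial genes listed were low: EPCAM at 1.38 to 3.41, KRT7 at 2.69 to 4.32, CDH1 at 0.144 to 1.73 and KRT19 at 0.0603 to 1.9 CPM. The fibroblast genes summed to 386 to 547 CPM in GFP and 344 to 388 CPM in TEADi. Most of this was COL1A1, at 302 to 429 and 236 to 275 CPM. Several marker sums moved with the group. The 6 epithelial genes summed to 270 to 320 CPM in GFP and 163 to 174 CPM in TEADi. KRT8 among them was at 188 to 228 and 96.9 to 106 CPM. The 3 mesenchymal genes summed to 2710 to 2960 CPM in GFP and 4150 to 4540 CPM in TEADi, but only FN1 rose. FN1 was at 875 to 1320 CPM in GFP and 2930 to 3350 CPM in TEADi. VIM fell, at 1460 to 1680 and 1120 to 1200 CPM, and so did CDH2, at 154 to 176 and 61.4 to 66.1 CPM. CD68, a macrophage marker that other cells also express, was at 280 to 286 CPM in GFP and 712 to 784 CPM in TEADi, and the leukocyte gene PTPRC was not analysed here. The part of these markers in the results was not tested. GFP libraries A and B stood apart in some genes of basal squamous cells (KRT5, KRT14, KRT17 and COL17A1, among others): KRT5 was 21.7 and 17.2 CPM there, 0.414 in GFP C and at most 0.302 with TEADi. They did not stand apart in KRT15, at 3.21, 3.79 and 2.97 CPM in GFP and 5.43 to 6.11 CPM with TEADi. The summed level of the 7 basal genes ran from 6.55 to 46.6 CPM in GFP and from 7.16 to 7.59 CPM in TEADi, and 2 of the 7 reached 1 CPM in 3 libraries. GFP library A also had the smallest share of mitochondrially encoded transcripts, 0.898% of its total against 2.84% and 3.20% in GFP B and C and 4.19% to 4.86% with TEADi. The medians of the family and of its subunits are therefore also given without GFP A and B, and some further results without GFP A. Values of single genes without both libraries are not given.

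All 76 genes passed the filter for testing (at least 1 CPM in at least 3 libraries), and all 76 fell with TEADi (limma on log2(CPM + 1), Benjamini-Hochberg adjusted p under 0.05 over the 13640 genes tested). Among all genes tested 35.3% were called lower and 25.5% higher. Among the 1978 genes with a mean of at least 100 CPM, the range in which the family lies, 52.2% were called lower. The median log2 fold change was -0.39, or 76.2% of the GFP mean, with quartiles at -0.47 and -0.33. The median was -0.07 over all genes tested and -0.19 over those of at least 100 CPM. In 72 of the 76 genes every TEADi library lay below every GFP library, which held for 38.1% of all genes tested.

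**Figure D1:**
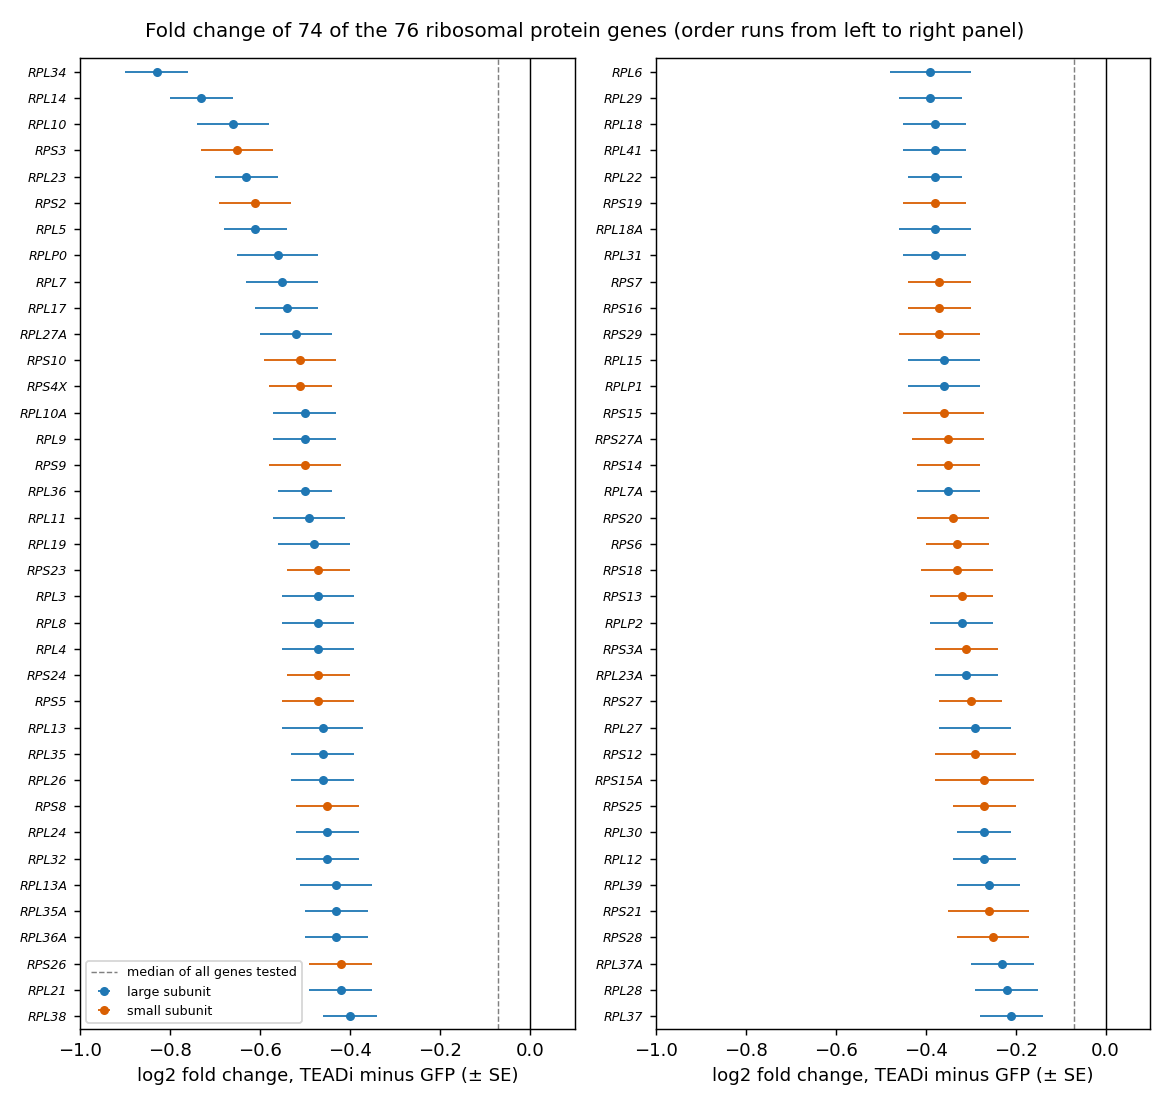
Fitted log2 fold change (TEADi minus GFP, horizontal axis) of ribosomal protein genes in order of size; bars are the standard error of the fit to 3 libraries a group, and the dashed line is the median of all genes tested, -0.07. 74 of the genes are drawn, and every point lies below 0, from -0.83 in RPL34 to -0.21 in RPL37.

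The size of the fall depends on how libraries are scaled. With totals made equal, or with median-ratio factors, the median over all genes tested moved from -0.07 to 0.00, the median of the family was -0.31, and 69 of the 76 genes were called lower. With quantile normalization 61 were called lower, at a median of -0.27, and the calls lost included those of RPL6, RPL27, RPL28, RPL30, RPL37, RPL37A, RPL39, RPLP2, RPS3A, RPS12, RPS15A, RPS21, RPS25 and RPS28. No gene of the family was called higher under these scalings, and all 76 were fitted below 0. Without GFP libraries A and B the median was -0.34. That fit leaves GFP C alone in its group, so its calls are not counted here. With 1 library left out at a time the count was 76 without GFP A, 68 without GFP B, 75 without GFP C, 71 without TEADi A, 71 without TEADi B and 72 without TEADi C. Among the genes whose call was lost in at least one of these fits were RPL28, RPL37, RPL37A, RPS12, RPS15A, RPS21 and RPS28. In the authors' deposited table, which holds a statistic per entry, 73 of the 74 genes with a single entry had a ratio of TEADi to GFP below 1 and an adjusted p (FDR step up) under 0.05, and the exception, RPS15A, had a ratio of 0.814 and an adjusted p of 0.0542.

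A share of the library total does not depend on the scaling. The 76 genes together made up 5.69%, 5.69% and 5.29% of the total in the GFP libraries and 4.53%, 4.29% and 4.24% in the TEADi libraries. The groups did not overlap, and the mean went from 5.56% ± 0.23 to 4.35% ± 0.151 (SD, n = 3 each), a ratio of 0.784. With mitochondrially encoded genes left out of the total, the means were 5.69% ± 0.20 and 4.56% ± 0.15. A share or CPM is relative to the other transcripts of a library, so that less ribosomal protein RNA per cell and more of other RNAs cannot be told apart.

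**Figure D2:**
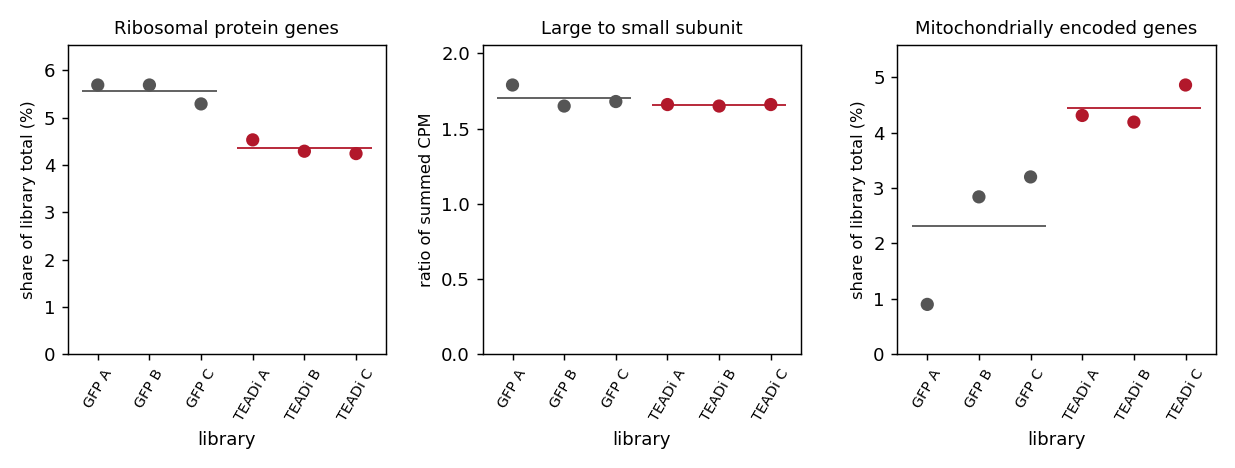
Summed values in each of the 6 libraries (points; GFP grey, TEADi red; lines are group means of 3): the share of the 76 genes in the library total (%), the ratio of summed CPM of large to small subunit genes, and the share of mitochondrially encoded genes (%). The TEADi libraries lie between 4.24% and 4.53% in the first panel, below all GFP libraries, and GFP A stands apart in the other panels.

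Large subunit. The 46 genes had a median log2 fold change of -0.43, from -0.83 to -0.21. RPL34, a small protein of the large subunit, had 163.8, 158.2 and 154.3 CPM in the GFP libraries and 88.6, 94.0 and 84.9 CPM in the TEADi libraries. The groups lay far apart, and the mean was 1.78-fold lower (log2 fold change -0.83 ± 0.07 SE; limma, Benjamini-Hochberg adjusted p = 1.3e-08). RPL14 had 660.4, 600.8 and 595.1 CPM in GFP and 367.2, 368.9 and 377.3 CPM in TEADi, again with a wide gap (1.67-fold lower; log2 fold change -0.73 ± 0.07). RPL23, which sits near the subunit interface and binds MDM2 when it is free of the ribosome, had 1065, 1014 and 944.1 CPM in GFP and 655.6, 649.7 and 639.4 CPM in TEADi (1.55-fold lower).

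RPL5 and RPL11 travel to the nascent large subunit together with the 5S ribosomal RNA, and unassembled they bind the ubiquitin ligase MDM2. RPL5 had 902.2, 850.1 and 829.1 CPM in GFP and 572.1, 577.4 and 545.2 CPM in TEADi, while RPL11 had 1070, 924.9 and 895.8 against 710.9, 670.2 and 677.2 CPM. Neither gene's groups overlapped, and the log2 fold changes were -0.61 ± 0.07 and -0.49 ± 0.08. Beside them, MDM2 itself was at 109.4 ± 3.99 CPM in GFP and 116.1 ± 4.84 CPM in TEADi (limma, Benjamini-Hochberg adjusted p = 0.273).

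The stalk of the large subunit recruits the GTPases of elongation. RPLP0, its base, had 1845, 1638 and 1505 CPM in GFP and 1139, 1117 and 1115 CPM in TEADi, without overlap (log2 fold change -0.56 ± 0.09). The other stalk proteins fell less: RPLP1 by 0.36, RPLP2 by 0.32 and RPL12, which anchors the stalk, by 0.27 on the log2 scale. Of the 9 genes whose proteins line the exit tunnel or its rim, where the new chain leaves, all 9 fell, at a median of -0.46 and from -0.54 in RPL17 to -0.26 in RPL39. RPL39 had 393.8, 395.2 and 409.7 CPM in GFP and 351.8, 332.5 and 314.2 CPM in TEADi, so that the groups stayed apart by a narrow margin. With quantile normalization the log2 fold changes of RPL39 and RPLP2 were -0.11 and -0.13 (limma, Benjamini-Hochberg adjusted p = 0.155 and 0.0817).

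RPL10 is among the last proteins to join the large subunit, during its maturation in the cytoplasm. It had 1104, 1026 and 952.9 CPM in GFP and 647.1, 642.0 and 652.0 CPM in TEADi, a 1.59-fold fall (log2 fold change -0.66 ± 0.08). These values are sums over 2 entries of the table, one on chromosome X and one on a patch sequence of the same genome region. In GFP A, GFP C and TEADi B the X entry was at the library's smallest value and the patch entry held the level, and in the other 3 libraries the reverse was seen. The authors' deposited table gives a ratio of 0.312 for the patch entry (FDR step up 0.363) and 1.27 for the X entry (FDR step up 0.436). RPL10A, a different protein of the large subunit at the exit side for transfer RNA, had 1 entry and fell by 0.50 on the log2 scale.

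Further members with high CPM were lower too. RPL19, of the exit tunnel rim, had 1778, 1639 and 1553 CPM in GFP and 1225, 1135 and 1207 CPM in TEADi (log2 fold change -0.48 ± 0.08). RPL8, which contacts the peptidyl transferase centre, had 1377, 1244 and 1182 CPM in GFP and 919.1, 861.2 and 965.7 CPM in TEADi (log2 fold change -0.47 ± 0.08). In RPL6 the highest library was GFP A, with 1381 CPM against 1123 and 1084 CPM in GFP B and C and 913.5, 898.7 and 912.9 CPM in TEADi (log2 fold change -0.39 ± 0.09), and with quantile normalization it was not called (-0.21; limma, Benjamini-Hochberg adjusted p = 0.0502). RPL27A had 1139, 1093 and 1037 CPM in GFP and 787.9, 727.4 and 760.7 CPM in TEADi (log2 fold change -0.52 ± 0.08). The groups did not overlap in any of the 4.

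Among the large subunit genes with the smallest falls were RPL37, RPL28 and RPL37A. RPL37 had 532.0, 611.0 and 560.6 CPM in GFP and 499.6, 483.5 and 491.5 CPM in TEADi (log2 fold change -0.21 ± 0.07; limma, Benjamini-Hochberg adjusted p = 0.0193), with GFP A nearest to the TEADi libraries. RPL28 had 255.4, 263.4 and 240.9 CPM in GFP and 204.6, 208.4 and 241.9 CPM in TEADi, where TEADi C reached the level of GFP C (log2 fold change -0.22 ± 0.07; limma, Benjamini-Hochberg adjusted p = 0.0172). RPL37A fell by 0.23 on the log2 scale. None of the 3 was called with totals made equal, at log2 values of -0.13, -0.14 and -0.15 for RPL37, RPL28 and RPL37A. RPL28 also overlaps UBE2S in the table's coordinates, and use of strand in counting is not given in the sources used here.

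**Figure D3:**
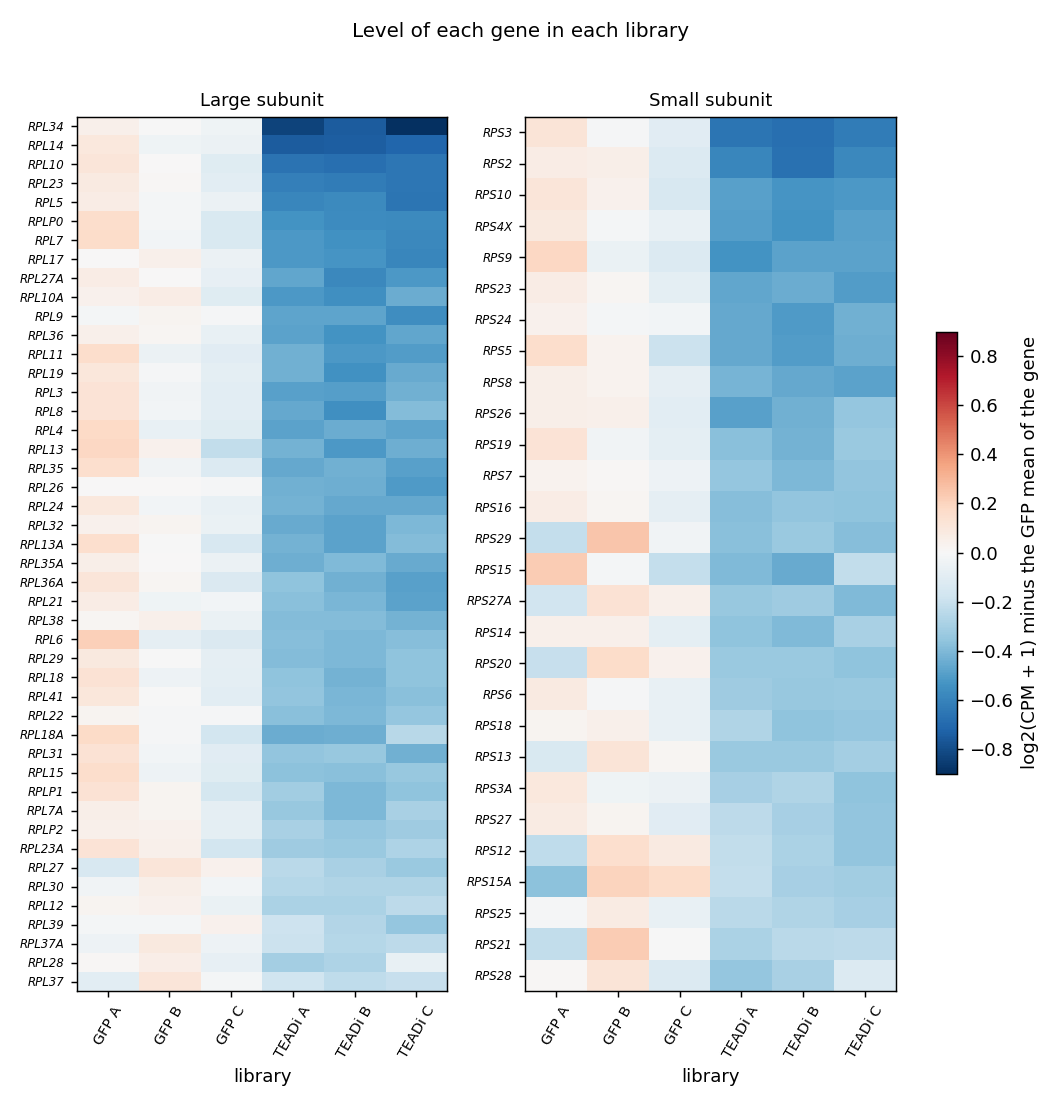
Level of each gene in each library, as log2(CPM + 1) minus the gene's mean over the 3 GFP libraries (colour scale), for the large subunit (left) and the small subunit (right), ordered by log2 fold change. 74 of the 76 genes are drawn. The TEADi columns are below the GFP mean throughout, and in GFP A genes such as RPS15A, RPS12, RPS20 and RPS21 lie below GFP B and C.

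Small subunit. The 30 genes had a median log2 fold change of -0.36, with the largest fall at -0.65. RPS3 and RPS2 form the entry of the messenger RNA channel, and they showed the largest falls of the subunit. RPS3 had 1395, 1278 and 1198 CPM in GFP and 817.4, 802.5 and 833.1 CPM in TEADi (1.58-fold lower; log2 fold change -0.65 ± 0.08; limma, Benjamini-Hochberg adjusted p = 2.0e-06). RPS2 had 1246, 1235 and 1094 CPM in GFP and 791.2, 746.1 and 793.9 CPM in TEADi (log2 fold change -0.61 ± 0.08). In neither gene did the groups overlap. The entry RPS2P46, a processed copy of RPS2, carried 21.7% of the RPS2 level and went from 251.2 to 176.4 CPM.

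Of the 14 genes whose proteins form the head of the small subunit, all fell, at a median of -0.36. RPS18, one of them, had the highest mean CPM of the family, a value that is not divided by transcript length. It had 1691, 1715 and 1589 CPM in GFP and 1376, 1293 and 1304 CPM in TEADi, without overlap (log2 fold change -0.33 ± 0.08). RPS19, the gene mutated most often in Diamond-Blackfan anaemia, a failure of red cell production, fell from 430.9 ± 33.1 to 330.9 ± 10.6 CPM (log2 fold change -0.38 ± 0.07). All 17 members of the list of Diamond-Blackfan genes fell, with the median of the whole family, -0.39. RPS27A, made as a fusion with ubiquitin, had 721.9, 890.6 and 841.8 CPM in GFP and 643.2, 652.1 and 617.1 CPM in TEADi (log2 fold change -0.35 ± 0.08). RPS6, the substrate of the S6 kinases downstream of mTOR, fell from 405.9 ± 21.4 to 322.2 ± 2.44 CPM (log2 fold change -0.33 ± 0.07).

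RPS28, at the exit of the messenger RNA channel, had 130.2, 140.7 and 118.7 CPM in GFP and 101.7, 105.7 and 118.9 CPM in TEADi, where TEADi C reached GFP C (log2 fold change -0.25 ± 0.08; limma, Benjamini-Hochberg adjusted p = 0.00934).

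RPS25, a head protein that some viral messenger RNAs need for internal initiation, was split like RPL10. Its reads sat on a patch entry in GFP A and B and on the chromosome 11 entry in GFP C and all TEADi libraries. Summed over both entries it had 659.2, 700.8 and 634.3 CPM in GFP and 560.1, 550.5 and 540.2 CPM in TEADi, a log2 fold change of -0.27 ± 0.07 without overlap. In the authors' deposited table the chromosome 11 entry alone has a ratio of 2.60 (FDR step up 0.0374) and the patch entry 0.000161 (FDR step up 0.0334). The entry taken decides the direction for this gene.

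GFP library A differed from GFP B and C within the family, and in most genes it was the higher one. It lay below the log2 mean of GFP B and C in 12 of the 38 shorter genes and 2 of the 38 longer ones. The 76 genes summed to 52086 CPM in GFP A and to 50492 and 47318 CPM in GFP B and C. In 7 genes, however, GFP A lay more than 10% below both: RPL27, RPS12, RPS15A, RPS20, RPS21, RPS27A and RPS29. Of these, 6 belong to the small subunit, and the coding sequences of the 7 are 168 to 468 nucleotides long. That count was not made over all genes. RPS15A had 243.6 CPM in GFP A against 361.9 and 352.9 CPM in GFP B and C, and 271.2, 255.2 and 253.3 CPM in TEADi, so that GFP A lay below all TEADi libraries. Its log2 fold change was -0.27 ± 0.11 (limma, Benjamini-Hochberg adjusted p = 0.0388) with all libraries, -0.46 without GFP A and -0.17 without GFP B (adjusted p = 0.201). In RPS12 the groups overlapped at GFP A, with 730.4 CPM against 731.3 CPM in TEADi A. RPS21 went to -0.14 and RPS29 to -0.24 without GFP B, from -0.26 and -0.37.

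The subunits were also compared with and without GFP A. The ratio of summed large to small subunit CPM was 1.79 in GFP A, 1.65 and 1.68 in GFP B and C, and 1.66, 1.65 and 1.66 in TEADi. Without GFP A the median log2 fold change was -0.38 for the large subunit and -0.39 for the small one. With GFP B left out as well, the medians were -0.35 and -0.33. Longer genes of the family fell more: across the 76 genes, log2 fold change and log2 coding length had a Pearson correlation of -0.40 and a Spearman correlation of -0.48. These became -0.23 and -0.27 without GFP A, whose own deviation from GFP B and C correlated with length at 0.41 and 0.52. The deviation of GFP B from its group's other libraries gave -0.44 and -0.47, and that of GFP C -0.26 and -0.33. The genes share their libraries, and the correlations are given as a description. The 38 shorter genes (75 to 453 nucleotides) had a median of -0.37 and the 38 longer ones (456 to 1281 nucleotides) of -0.46, and without GFP A the medians were -0.37 and -0.40. Over the 11512 tested genes with a coding length the Pearson correlation of log2 fold change and length was 0.11. For the deviation of GFP A it was -0.25 over these genes, opposite in sign to that in the family.

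**Figure D4:**
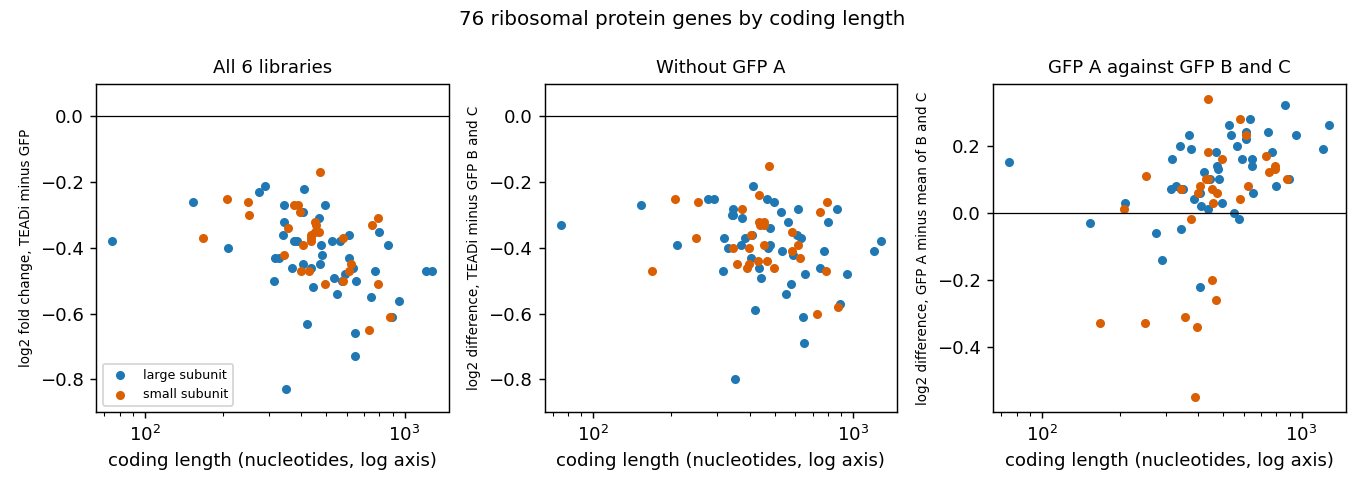
Each point is one of the 76 genes, by coding length (nucleotides, log axis), with the log2 fold change over all libraries (left), the difference of TEADi from GFP B and C alone (middle) and the difference of GFP A from the mean of GFP B and C (right). The slope seen on the left (Pearson -0.40) is shallower without GFP A (-0.23), and on the right short small subunit genes lie lowest.

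To ask which genes departed from the family, every library was scaled to the same sum over the 76 genes and all 13679 genes then passing the filter were fitted again. Of the 76 genes, 14 were called, 7 lower and 7 higher than the family, where 66.0% of all genes tested were called, 10.2% lower and 55.9% higher. The 7 that fell further were RPL34, RPL14, RPL10, RPS3, RPL23, RPS2 and RPL5. In RPL34 the departure was -0.40 ± 0.07 on the log2 scale (limma, Benjamini-Hochberg adjusted p = 1.3e-04), in RPL14 -0.30 ± 0.06 and in RPS3 -0.22 ± 0.07. Among the 7 that fell less were RPL37, RPL28, RPL37A, RPL12, RPL30 and RPS25, with RPL37 at 0.23 ± 0.07 (limma, Benjamini-Hochberg adjusted p = 0.0147). The other 62 genes were not called, which does not show that they moved alike.

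Across 16 other settings of this fit, RPL34, RPL14 and RPS3 were called below the family in all 16. RPL10 and RPL23 were called in 15, RPL28 and RPL37 in 14 and RPL37A in 12, while RPL12, RPL5, RPS2, RPL30 and RPS25 were called in 6 to 10. Among the 16 is the fit without GFP libraries A and B, which leaves GFP C alone in its group, so that no spread within GFP enters its calls. Without TEADi A, B or C the count was 9, 8 and 8, and without a variance trend in limma it was 6.

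Sequence features near the start were set beside the size of the fall, as a description. Of the 61 genes with a RefSeq promoter entry, 47 (77%) had at least 6 pyrimidines in a row over the first base. Among all 27305 genes with such an entry the share was 9.25%. A gene with several starts counted if any of them matched. The median log2 fold change was -0.38 with the run and -0.43 in the 14 genes without it. Among the 8 windows printed above, which were chosen for having a run, it was 10 to 14 bases long in the 4 genes with the larger falls and 13 to 22 in the 4 with the smaller falls. The ranges overlap, and run length was not set against the fall over the 47 genes with a run. These lengths count bases before the annotated start too and are not lengths of the TOP tract. The core of the TEAD motif, GGAATG, was sought on either strand within 250 bases before and 50 after the start. It was present in 5 of the 61 (8.20%: RPL10, RPL38, RPL6, RPL7A and RPS27A), against 16.7% of all genes with an entry. The medians were -0.39 with and -0.41 without it. The E-box CACGTG, bound by MYC among others, was present in 6.56% against 8.77%. The ETS core CTTCCG, which can overlap a pyrimidine run, was present in 63.9% against 22.6%. A match or its absence describes letters in this window and says nothing of binding.

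Many ribosomal protein genes carry small nucleolar RNAs, guides of ribosomal RNA modification, in their introns. In the GENCODE release 29 annotation 27 of the 76 (35.5%) held at least 1, 57 in all, against 1.38% of protein-coding genes. The median log2 fold change was -0.42 for these hosts and -0.39 for the other 49.

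Ribosomal proteins whose symbols fall outside the rule moved in the same direction. RPSA, a protein of the messenger RNA exit side, had 1402, 1227 and 1162 CPM in GFP and 808.5, 809.3 and 796.4 CPM in TEADi (log2 fold change -0.65 ± 0.08). GNB2L1, the older symbol of the scaffold RACK1, fell by 0.49 and FAU by 0.50 on the log2 scale. All 4 genes of this list were called with the deposited scaling, and 3 with totals made equal. Of 6 tested paralogs 5 fell, led by RPL22L1, the paralog of RPL22, which had 16.4, 22.8 and 26.3 CPM in GFP and 10.8, 9.85 and 11.5 CPM in TEADi (2.04-fold lower). RPS27L, a paralog of RPS27, was at 28.62 ± 1.95 and 28.15 ± 1.03 CPM with overlapping groups (log2 fold change -0.02 ± 0.08; limma, Benjamini-Hochberg adjusted p = 0.84). RPL3L did not reach the filter, and RPL10L was not analysed here.

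Other messenger RNAs with a TOP tract, most of them for translation factors, fell as well: 17 of 18, at a median of -0.52, counting again the 4 genes of that list. For the lists described here, the shares to compare are again the 35.3% of all genes tested that were called lower, or 52.2% of those with a mean of at least 100 CPM. EEF1A1, the elongation factor that brings aminoacyl transfer RNA to the ribosome, had 10312, 8681 and 8292 CPM in GFP and 5420, 5373 and 5553 CPM in TEADi (1.67-fold lower). EIF3F, a subunit of initiation factor eIF3, fell by 0.81, HNRNPA1, an RNA-binding protein, by 0.83, PABPC1, the poly(A)-binding protein, by 0.73 and NAP1L1, a histone chaperone, by 0.71. TPT1 was the exception, with 698.1, 708.7 and 672.6 CPM in GFP and 695.9, 688.5 and 672.2 CPM in TEADi, overlapping groups, and a log2 fold change of -0.02 ± 0.07 (limma, Benjamini-Hochberg adjusted p = 0.855). With totals made equal 15 of the 18 were called lower.

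Dedicated chaperones and escorts bring single ribosomal proteins to the assembling subunits, and 10 of the 11 tested fell, at a median of -0.43 (9 with totals made equal), where 35.3% of all genes tested fell. PDCD2L, which accompanies RPS2, had 10.9, 9.78 and 10.1 CPM in GFP and 3.62, 4.03 and 4.52 CPM in TEADi, without overlap (2.53-fold lower; log2 fold change -1.16 ± 0.12). LTV1, which in yeast holds Rps3 in place during assembly, fell from 107.3 ± 4.46 to 64.08 ± 0.749 CPM, BCCIP, the partner of RPL23, from 137.0 ± 16.3 to 82.25 ± 4.90 CPM, and GRWD1, the partner of RPL3, from 85.02 ± 6.19 to 52.34 ± 4.53 CPM. HEATR3, an importer of RPL5, was at 24.78 ± 2.72 and 21.95 ± 0.636 CPM (limma, Benjamini-Hochberg adjusted p = 0.141).

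Among 18 genes that control ribosomal protein synthesis, 9 fell and 3 rose, at a median of -0.23. Of all genes tested 35.3% fell and 25.5% rose. Of those with a mean of at least 100 CPM 52.2% fell, but most genes of this list lie below that mean. MYC, a transcription factor of ribosome production, had 31.2, 27.2 and 31.9 CPM in GFP and 11.99, 13.4 and 13.5 CPM in TEADi (2.32-fold lower; log2 fold change -1.15 ± 0.10; limma, Benjamini-Hochberg adjusted p = 2.5e-08). RHEB, the activator of mTOR complex 1, fell from 69.10 ± 9.47 to 39.15 ± 0.374 CPM, and EIF4EBP1, an inhibitor of cap-dependent initiation that mTOR switches off, from 79.84 ± 9.17 to 49.06 ± 3.76 CPM. TSC1, which restrains RHEB, rose from 27.76 ± 1.87 to 44.57 ± 2.39 CPM (1.61-fold higher), and TSC2 and RPTOR rose by 0.23 and 0.28 on the log2 scale. MTOR itself was at 156.4 ± 7.87 and 155.9 ± 8.42 CPM (limma, Benjamini-Hochberg adjusted p = 0.958). These are RNA levels, and no kinase activity was measured. With totals made equal the same 9 were called lower, and TIA1 joined the 3 called higher.

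Of 12 genes of ribosome quality control, which clear stalled or faulty ribosomes, 6 fell and 6 were not called, at a median of -0.22. Of all genes tested 35.3% fell, at a median of -0.07. Of those with a mean of at least 100 CPM 52.2% fell (median -0.19), but most genes of this list lie below that mean. ABCE1, which splits the subunits for recycling, had 294.3, 240.8 and 250.4 CPM in GFP and 155.9, 169.3 and 173.7 CPM in TEADi (1.57-fold lower). USP10 and RNF10, a deubiquitinase and a ubiquitin ligase of the small subunit, fell by 0.43 and 0.40, and ASCC2, of the complex that takes apart collided ribosomes, by 0.40 on the log2 scale. PELO, which rescues stalled ribosomes, and NEMF and LTN1, which act on the large subunit once it is split off, were at log2 fold changes of 0.04, 0.09 and 0.10 and were not called. With totals made equal the same 6 were called lower and NEMF higher.

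**Figure D5:**
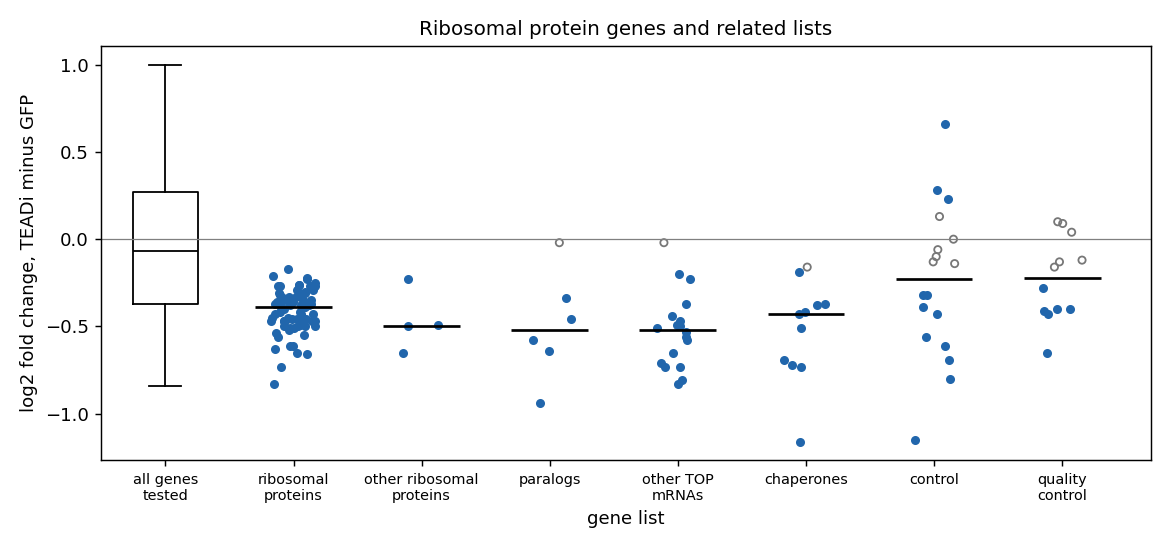
Log2 fold change (TEADi minus GFP) of the ribosomal protein genes and the related lists; each point is a gene (filled: called at an adjusted p under 0.05, open: not called), lines are medians, and the box shows all genes tested (quartiles, with whiskers at the 5th and 95th percentiles). The ribosomal proteins have a median of -0.39, and the lists of control and quality control genes hold genes on both sides of 0.

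The level of some members is uncertain because near-identical copies could share their reads. In all 159 pseudogene or copy symbols were found for 51 members. They summed to at least 10% of the member for 3 members, among them RPS2 and RPL41. RPL41P1 carried 69.5% of the RPL41 level and went from 378.2 to 283.5 CPM. With the copies added to their members all 76 remained called lower, at a median of -0.40. In the table's coordinates RPL28, RPL36, RPL6, RPS13 and RPS29 overlapped another gene with at least 10% of their level.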

How the data were processed

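Poly(A) RNA libraries were made with a TruSeq kit, per the labels' protocols. The authors deposited CPM values scaled with TMM factors, and a table of ratios (fold), p-values and FDR, and a signed fold score in which a fall is negative, made with a test that its columns do not describe. The build hg19, STAR 2.5.1, Trimmomatic 0.36 and Partek 8.0.19.0819 appear, per the submitters' processing notes; quantifier, annotation and strand are not given in the sources used here. The unit was read from the values. In each library 1831 to 2157 entries share the smallest value, which stands for 0, and 87.7% to 88.4% of low values came within 0.1 of whole multiples of it, too few to recover reads.

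The 19921 entries were merged by symbol (421 symbols had several entries), summing values above the smallest one. Genes reaching 1 CPM in 3 or more libraries were fitted on log2(CPM + 1) with limma 3.58.1 in R 4.3.3 (eBayes with a variance trend, two-sided, no covariates), and p-values were adjusted by Benjamini-Hochberg over all tested genes. The code was tested on simulated data. Fold differences are ratios of mean CPM, and errors of means are SD over 3 libraries. Members and lists were chosen with earlier results of these data known. Members described are the 8 lowest, the 8 highest and the 8 with the highest mean CPM, those called away from the family and those with a named role; RPS25, RPS15A, RPS12, RPS29 and list members that were not called or rose were chosen after their values were seen. Alternatives changed the pseudocount, filter, scaling, variance trend, replicate block, merging and libraries used. Coding lengths and small nucleolar RNAs came from GENCODE release 29, and promoters from RefSeq on GRCh38.p14, for names and sequence only, since the table is on hg19. Tables and figures used Python 3.11.15 with matplotlib 3.10.9, scipy 1.17.1, numpy 2.4.6 and pandas 2.3.3. The results of some genes that this choice names are not reported here, and 2 of the 76 are left out of the figures that name genes; counts and medians include them.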

Additional observations from a re-analysis of the deposited data

How the results depend on the processing

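The count of genes called lower stayed within 1.5 times of 76 in every setting tried, from 61 with quantile normalization to 76, with 72 without a filter on low values, 71 without a variance trend and 68 to 76 with each library left out in turn. The median log2 fold change was -0.31 with equal totals, -0.31 with median-ratio factors, -0.27 with quantile normalization, -0.34 without GFP libraries A and B, and -0.45 to -0.39 with each library left out in turn. The count of 14 genes called away from the family was 6 without a variance trend and 8 to 15 with each library left out (8 without TEADi B, 8 without TEADi C and 9 without TEADi A). The causes were not tested. When only the entry with the highest mean was kept, RPS25 turned to a log2 fold change of 5.94 and was called higher (limma, Benjamini-Hochberg adjusted p = 0.0431). RPL10 went to -3.53 and was not called (limma, Benjamini-Hochberg adjusted p = 0.365). In both genes each entry holds the reads of some libraries only. Of the values of 30 named genes over 18 settings, 480 kept their direction and call, 59 kept their direction without the call and 1 turned, that of RPS25.

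The letters A, B and C are used in each group without a stated meaning. Same-letter libraries had correlations of their deviations of 0.08, -0.06 and -0.02, and the libraries did not all match best with their own letter. With the letter as a replicate block 75 genes were called lower and 9 away from the family. The setting that adds the reads of copies to their members was chosen after seeing the data. With 3 libraries a group, outlying libraries were not tested for, and the depth in reads behind a CPM is unknown.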
